A study of Mus musculus with 6 samples.

Results

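Chemokine receptors and the selectin ligand core protein are the molecules with which blood cell progenitors leave one organ and enter another. The group described here has 9 genes: the chemokine receptors Ccr9, Ccr7, Cxcr4, Ccr1, Ccr2, Cxcr2, Cxcr6 and Cx3cr1, and Selplg, which encodes the P-selectin ligand PSGL-1. They were chosen by gene symbol through the RefSeq accession that the array gives each probe, and every probe that named a member was kept. This gave 12 probes, 1 spot each, among 55681 probes in all, of which 27242 carried a named gene (20663 genes). Cxcr6, Cx3cr1 and Selplg had more than 1 probe, called probe 1 and probe 2 here.

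RNA was measured on 6 one-colour mouse expression arrays, 1 for each of 3 fetal liver populations in each of 2 genotypes, wild type and Satb1-null. Satb1 is a nuclear protein that organises chromatin, and the series asked which genes depend on it in early lymphoid development. All embryos were on a C57BL6/J background at E18.5 (embryonic day), and the wild type embryos were littermates of the Satb1-null ones. The sorted cells lacked lineage markers. HSC (enriched for haematopoietic stem cells) were c-kit high, Sca-1+ and Flt3-, LMPP (enriched for lymphoid-primed multipotent progenitors) c-kit high, Sca-1+ and Flt3+, and CLP (enriched for common lymphoid progenitors) c-kit low, Sca-1 low and IL7Rα+. The sources used here give neither the allele's construction nor the number of embryos pooled. With 1 array per group, a difference between 2 arrays has no replicate check and no p-value.

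A chemokine receptor sits in the cell membrane, binds a small secreted protein, and signals through an inhibitory G protein to turn a cell towards the source. Fetal liver progenitors are held or released partly through Cxcr4, whose ligand Cxcl12 is made by stromal cells. Progenitors that settle the thymus use Ccr9 (ligand Ccl25), Ccr7 (ligands Ccl19 and Ccl21) and PSGL-1, which binds P-selectin on vessel walls. Ccr1, Ccr2, Cxcr2 and Cx3cr1 are best known from monocytes, neutrophils and other myeloid cells, and Cxcr6 from activated and innate lymphocytes.

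The promoters of Cxcr2 and Cxcr4, the members called between populations, and of the thymus-settling receptor Ccr9 are shown because they are the regulatory sequence next to these genes. They come from RefSeq, build GRCm38.p6, which held an entry for 7 of the 9 members, and run from 250 bases before the gene's start to 50 after it, 5′ to 3′ on the gene's strand. Capitals mark matches, on either strand, to 4 short motifs known from blood cell transcription factors: GAGGAA (PU.1), TGTGGT (Runx), CAGGTG (E-box) and TTGCNNAA (C/EBP). Shown are Cxcr2 (chr1:74153744-74154043, plus strand), Cxcr4 (chr1:128592250-128592549, minus strand) and Ccr9 (chr9:123766961-123767260, plus strand).
Cxcr2: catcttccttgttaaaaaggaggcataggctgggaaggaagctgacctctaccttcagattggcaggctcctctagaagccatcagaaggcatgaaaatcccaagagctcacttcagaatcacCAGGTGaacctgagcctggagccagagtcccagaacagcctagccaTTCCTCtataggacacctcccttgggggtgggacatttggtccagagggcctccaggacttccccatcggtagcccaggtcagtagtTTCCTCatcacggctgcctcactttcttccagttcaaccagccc
Cxcr4: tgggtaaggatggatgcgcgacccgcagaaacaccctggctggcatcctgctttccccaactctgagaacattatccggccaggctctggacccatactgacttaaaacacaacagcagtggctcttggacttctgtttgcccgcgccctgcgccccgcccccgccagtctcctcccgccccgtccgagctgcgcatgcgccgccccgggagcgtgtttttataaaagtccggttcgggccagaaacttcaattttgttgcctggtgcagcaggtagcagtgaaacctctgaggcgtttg
Ccr9: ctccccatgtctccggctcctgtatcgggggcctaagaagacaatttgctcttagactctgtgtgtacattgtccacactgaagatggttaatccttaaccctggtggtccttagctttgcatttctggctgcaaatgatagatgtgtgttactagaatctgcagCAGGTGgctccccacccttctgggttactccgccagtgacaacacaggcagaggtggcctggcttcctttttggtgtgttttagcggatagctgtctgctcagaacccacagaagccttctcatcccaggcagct
The Cxcr2 window held CAGGTG at -127 and the reverse complement of GAGGAA at -81 and again at 7, counted from the start. The Ccr9 window held CAGGTG at -85, and the Cxcr4 window held none of the 4 motifs. Matches are a description of the letters only. Over 32851 mouse promoters of the same length, GAGGAA occurred in 28.3%, CAGGTG in 20.2%, TGTGGT in 16.8% and TTGCNNAA in 10.8%. The share of A and T was 46% for Cxcr2, 40.7% for Cxcr4 and 48.7% for Ccr9, against a median of 47.3% over all promoters. Members Cx3cr1, Ccr9, Cxcr6, Ccr1 and Ccr2 share chromosome 9: counted along its protein-coding genes, Cx3cr1 is gene 1134, Ccr9 1186, Cxcr6 1188, Ccr1 1190 and Ccr2 1193. Cxcr2 and Cxcr4 lie on chromosome 1, Selplg on chromosome 5 and Ccr7 on chromosome 11.

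Levels are log2 of the scanner's processed signal, minus the array's 75th percentile, so a level of 0 equals that percentile. A level is comparable between arrays for 1 probe, not between probes. A probe was called well above background where the scanner software said so. Between 28898 and 31975 probes were well above background per array, and no spot was saturated. Of the genes used in the sort, Flt3 peaked in LMPP and Il7r in CLP in both genotypes. Kit, which encodes c-kit, was lowest in CLP in both. Ly6a, which encodes Sca-1, followed the sort less clearly. In the order HSC, LMPP, CLP it read 0.29, 1.12 and 0.21 in wild type and 0.35, 0.14 and -0.50 in the null. The Satb1 probe read -0.03 and -0.59 in wild type and null HSC, 2.0 and 1.96 for LMPP, and 0.71 and 0.65 for CLP. The sources used here do not place it relative to the deleted part, so it checks no label. Xist, the noncoding RNA of X inactivation, was well above background on the 3 null arrays (4.18 to 4.74) and on no wild type array. The Y-linked gene Ddx3y read -0.63 to 0.44 on the wild type arrays and -2.44 to -1.60 on the null arrays. Wild type arrays lay in slide row 1 and null arrays in slide row 2. Genotype, these sex-linked signals and slide row cannot be told apart in any genotype comparison below.

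**Figure D1:**
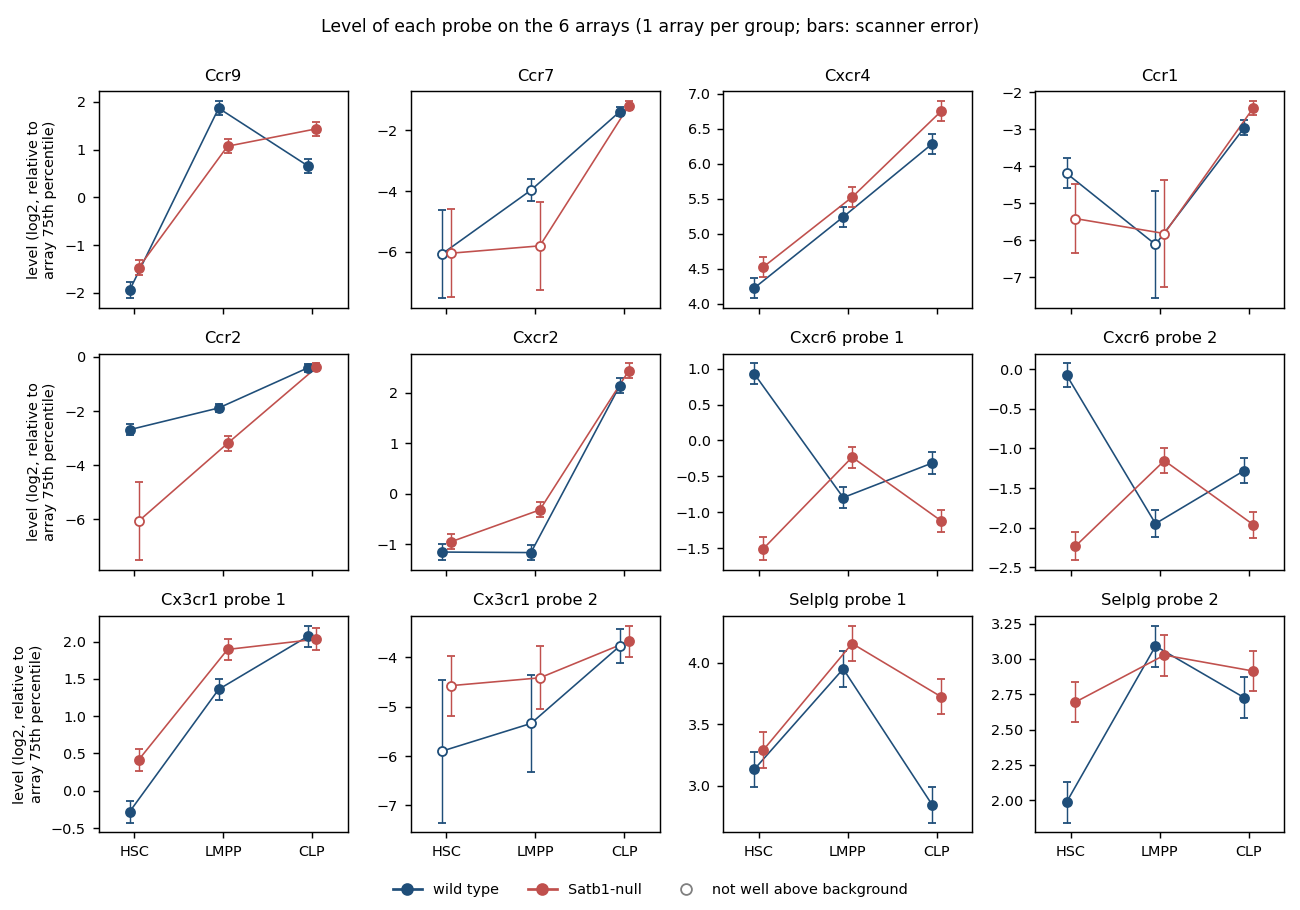
Level (log2, relative to the array's 75th percentile) of the 12 probes in HSC, LMPP and CLP, 1 array per group, wild type in blue and Satb1-null in red; bars are the scanner software's error and open circles are not well above background. Cxcr4 and Cxcr2 were highest in CLP in both genotypes, Ccr7 and Ccr1 were well above background in CLP only, and both Cxcr6 probes ran in opposite orders in the 2 genotypes.

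Among the receptors of thymus settling, Ccr9 was low in HSC and high in both later populations. From HSC through LMPP to CLP its levels were -1.94, 1.87 and 0.66 in wild type and -1.47, 1.07 and 1.44 in the null. Both HSC arrays lay below all 4 others. LMPP exceeded HSC by 3.81 in wild type, which is 14.0-fold, and by 2.55 in the null. The order of the later populations was not the same in the 2 genotypes: CLP minus LMPP was -1.21 in wild type and 0.36 in the null. Null minus wild type in these 3 populations, in the same order, was 0.47, -0.80 and 0.77, none past 2-fold. The scanner error of each of these differences was 0.20 to 0.23. In bulk RNA of sorted cells, fewer cells with a transcript and less transcript per cell cannot be told apart.

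Ccr7, which guides cells to the thymus and to lymph nodes, was well above background on the CLP arrays alone. It read -1.39 in wild type CLP and -1.20 in null CLP, and the other 4 arrays lay at or below -3.97, not well above background. CLP was therefore higher than LMPP by at least 2.58 in wild type and at least 2.56 in the null, which is at least 5.99-fold and 5.88-fold. The genotypes differed by 0.19 in CLP, within the scanner error of 0.22, and could not be compared in HSC and LMPP.

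Selplg was well above background on every array by both probes. In the order HSC, LMPP, CLP, probe 1 read 3.13, 3.95 and 2.85 in wild type and 3.29, 4.16 and 3.72 in the null. Probe 2 read 1.99, 3.09 and 2.72 in wild type and 2.69, 3.03 and 2.91 in the null. LMPP read highest by both probes in both genotypes, though CLP minus LMPP in the null was -0.11 with probe 2, within the scanner error of 0.20. The probes put the wild type's lowest level in different populations, probe 1 in CLP and probe 2 in HSC. They also differed on the genotype: probe 1 was higher in the null by 0.16, 0.21 and 0.88 in HSC, LMPP and CLP, and probe 2 by 0.71, -0.06 and 0.19. No difference between genotypes passed 2-fold by either probe. Between populations each probe passed 2-fold once, both times in wild type: probe 1 was 2.15-fold lower in CLP than in LMPP, and probe 2 was 2.15-fold higher in LMPP than in HSC.

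Cxcr4, the receptor for the retention signal Cxcl12, was lowest in HSC, higher in LMPP and highest in CLP. Its levels were 4.22, 5.24 and 6.28 in wild type and 4.52, 5.52 and 6.75 in the null. The 2 arrays of each population lay together and no population overlapped another. LMPP minus HSC was 1.02 in wild type and 1.0 in the null, and CLP minus LMPP was 1.05 and 1.23. The null array was the higher in all 3 populations, by 0.30, 0.28 and 0.47, each under 2-fold and each with a scanner error of 0.20.

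Cxcr2, the neutrophil receptor for Cxcl1, Cxcl2 and Cxcl5, was below 0 in HSC and LMPP and well above 0 in CLP. It read -1.16, -1.17 and 2.14 in wild type and -0.96, -0.32 and 2.43 in the null. Both CLP arrays stood apart from the other 4. CLP minus LMPP was 3.31 in wild type and 2.76 in the null. The null array was higher by 0.20, 0.85 and 0.29 in HSC, LMPP and CLP, none past 2-fold.

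Ccr2, the monocyte receptor for Ccl2, was also highest in CLP, and it differed between genotypes in HSC and LMPP. In the same order it read -2.69, -1.89 and -0.41 in wild type. In the null it read -6.06 in HSC, not well above background, then -3.19 and -0.39. The null was lower by at least 1.35 in HSC, which is at least 2.54-fold, and by 2.47-fold in LMPP, a log2 difference of -1.31 with a scanner error of 0.32. In CLP the genotypes read 0.02 apart, within the scanner error of 0.21.

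Ccr1, a receptor for Ccl3 and Ccl5, was well above background only in CLP, at -2.95 in wild type and -2.42 in the null. CLP minus LMPP was at least 1.09 in wild type and at least 1.34 in the null. Cx3cr1, the fractalkine receptor of monocytes and macrophages, read -0.28, 1.36 and 2.07 in wild type and 0.41, 1.90 and 2.03 in the null by probe 1. Its HSC arrays were the lowest of the 6, and the genotypes differed by 0.69, 0.54 and -0.04. Probe 2 was well above background on the null CLP array alone, at -3.68, so it gives no order of the populations.

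Cxcr6, a receptor for the membrane-bound chemokine Cxcl16, had the largest genotype difference among the members measured on both arrays, that of Ccr2 in HSC being a bound. In the same order, probe 1 read 0.93, -0.80 and -0.32 in wild type and -1.51, -0.23 and -1.12 in the null. Probe 2 read -0.07, -1.95 and -1.28 in wild type and -2.23, -1.15 and -1.96 in the null. By both probes the wild type HSC array was the highest of the 6 and the null HSC array the lowest. The null was lower in HSC by 5.43-fold with probe 1 (-2.44) and 4.47-fold with probe 2 (-2.16). In LMPP the difference ran the other way, 0.56 and 0.80, and in CLP it was -0.80 and -0.68. The probes read 1 RNA sample per array, so their likeness is no replication of the genotype difference.

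**Figure D2:**
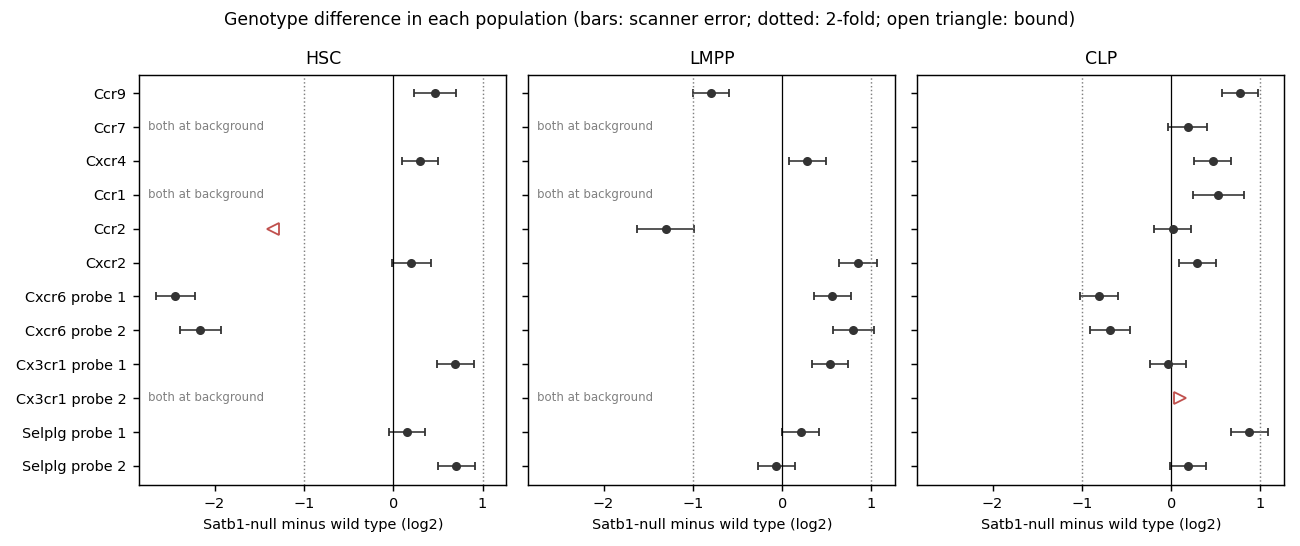
Satb1-null minus wild type (log2) for each probe in HSC, LMPP and CLP; points are differences of single arrays, bars the scanner error, open triangles lower bounds, dotted lines 2-fold. Past 2-fold lie both Cxcr6 probes and Ccr2 in HSC and Ccr2 in LMPP, all lower in the null.

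Counted together, 3 of the 9 probes that could be compared in HSC passed 2-fold, all lower in the null. Over all probes in HSC, 18.6% passed 2-fold either way and 10.7% passed it as lower in the null. Among LMPP arrays 1 of 9 passed, Ccr2, against 12.4% of all probes either way and 5.27% lower. Among CLP arrays 0 of 12 passed, against 23.2% of all probes. The median difference of the members' compared probes was 0.20, 0.28 and 0.19 in the 3 populations, beside 0.0017, -0.06 and -0.02 over all probes.

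A difference between genotypes shared by the populations was sought with limma, a linear model fitted per probe over all 6 arrays with genotype and population as terms. It took the 30568 probes well above background on at least 3 arrays, and adjusted p-values by Benjamini-Hochberg over all of them, with a threshold of 0.05. Of the members' 12 probes, 9 entered: those of Ccr7 and Ccr1 and Cx3cr1 probe 2 were detected on too few arrays. None of the 9 was called, and none had an unadjusted p under 0.05 (6.22% of all probes had). Their adjusted p ran from 0.781 for Ccr2 (-0.88, SE 0.36, lower in 2 of 3 populations) to 0.950 for Ccr9 (0.15, SE 0.38, higher in 2 of 3). Cxcr4, Cxcr2 and Selplg probe 1 were higher in the null in 3 of 3 populations, by 0.35 (SE 0.20), 0.45 (SE 0.24) and 0.41 (SE 0.25). Over all probes 4 of 30568 were called (0.0131%), and 1901 had an unadjusted p under 0.05. Populations of 1 genotype may come from the same embryos, and these p-values measure only the spread between these arrays.

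Between populations, both genotypes gave 2 arrays per population. From HSC to LMPP, 6 of 9 probes passed 2-fold in wild type and 5 of 9 in the null, against 17.3% and 17.5% of all probes either way. In wild type 4 of the 6 were higher in LMPP, where 6.51% of all probes were: Ccr9, Cxcr4, Cx3cr1 probe 1 and Selplg probe 2. Both Cxcr6 probes were lower, by -1.72 and -1.88, while in the null they were higher, by 1.28 and 1.08. In the fit over both genotypes no member was called for LMPP minus HSC, and limma called none of all 30568 probes, although 2372 (7.76%) had an unadjusted p under 0.05. Of the members 4 were among those: Ccr9 (3.18, SE 0.46, adjusted p = 0.553), Cx3cr1 probe 1 (1.56, SE 0.30, adjusted p = 0.567), Cxcr4 (1.01, SE 0.24, adjusted p = 0.609) and Selplg probe 1 (0.84, SE 0.31, adjusted p = 0.640). Each was higher in LMPP in both genotypes.

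From LMPP to CLP, 7 of 11 compared probes passed 2-fold in wild type and 5 of 12 in the null, against 31.7% and 29.4% of all probes. Cxcr2 rose by 3.03 (SE 0.29), which is 8.18-fold, with limma's adjusted p = 0.0347, and it was higher in both genotypes. It was the 1 called of the members' 9 fitted probes, where 2.94% of all probes were. Ccr2 (2.14, SE 0.44, adjusted p = 0.0871) and Cxcr4 (1.14, SE 0.24, adjusted p = 0.0935) missed the threshold, with CLP above LMPP in both genotypes. Selplg probe 1 differed by -0.77 (SE 0.31), with limma's adjusted p = 0.237.

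From HSC to CLP, 9 of 11 probes passed 2-fold in wild type and 7 of 12 in the null, against 34% and 29.4% of all probes. In the fit Cxcr2 rose by 3.34 (SE 0.29), 10.2-fold, with limma's adjusted p = 0.0377, and Cxcr4 rose by 2.15 (SE 0.24), 4.42-fold, with adjusted p = 0.0420. These 2 of the members' 9 fitted probes stand beside 2.29% of all probes. Ccr2 (2.96, SE 0.44, adjusted p = 0.0571), Cx3cr1 probe 1 (1.98, SE 0.30, adjusted p = 0.0582) and Ccr9 (2.76, SE 0.46, adjusted p = 0.0646) missed the threshold with CLP above HSC in both genotypes. Both CLP contrasts use the same CLP arrays and are not independent of each other. Leaving out any 1 of the 6 arrays left no member called, with adjusted p for Cxcr2 of 0.0757 to 0.269 in CLP minus LMPP and 0.0777 to 0.219 in CLP minus HSC. Cxcr4 in CLP minus HSC then had an adjusted p of 0.0878 to 0.228, and its call was also lost at 0.0506 to 0.0554 under 3 other settings.

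**Figure D3:**
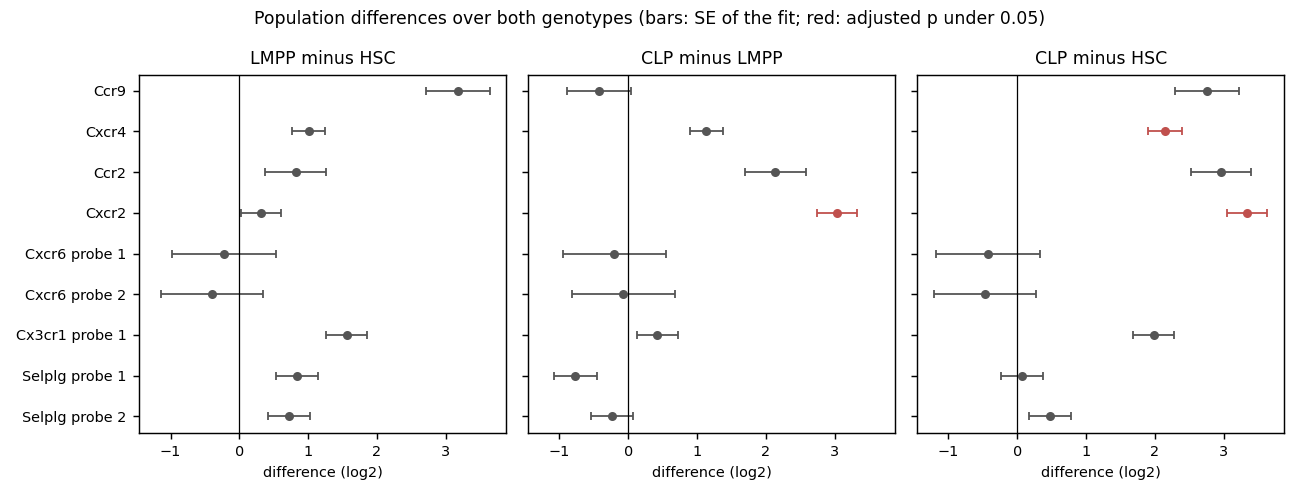
Difference between populations (log2) of the 9 probes in the limma fit over both genotypes, 2 arrays per population; bars are the SE of the fit and red marks an adjusted p under 0.05. Red are Cxcr2 in CLP minus LMPP and Cxcr2 and Cxcr4 in CLP minus HSC; the Cxcr6 bars cross 0 in all 3 panels.

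Most markers of granulocytes and monocytes rose in CLP, as Cxcr2 did. Of 14 listed genes 12 had a probe, all 12 well above background on every array. From LMPP to CLP limma called 7 of the 12 higher and none lower, where 2.94% of all probes were called either way. From HSC to CLP it called 4 higher and none lower, where 2.29% were. Csf3r and Csf1r did not rise, at -0.03 each for CLP minus LMPP and -0.21 and -0.17 for CLP minus HSC. The 7 include S100a8, Camp, Ltf and Fcnb, products of maturing neutrophils, with LMPP-to-CLP differences of 4.12, 4.25, 4.37 and 4.97 and limma's adjusted p of 0.0341 to 0.0362. The summed level of all 12 granulocyte and monocyte markers, in multiples of the array's 75th percentile, was 525 to 673 on the HSC and LMPP arrays. On the CLP arrays it was 1486 to 1759. This sum includes Csf3r, which did not rise and was the brightest of the 12 on the wild type HSC array, at 8.17. Mast cell, basophil and eosinophil markers summed to 4.08 to 14.2 on the HSC and LMPP arrays and 135 to 190 on the CLP arrays, with 4 of 4 tested called higher from LMPP to CLP. Macrophage markers summed to 0.62 to 2.09 and then 9.11 to 13.7, with 2 of 5 called. Erythroid markers summed to 52.2 to 137 and then 810 to 832, with 3 of 7 called. Megakaryocyte markers summed to 6.97 to 20.9 and then 32.8 to 52.2, with 0 of 6 called by limma (3 at an unadjusted p under 0.05), and endothelial and stromal markers to 5.56 to 6.59 and then 7.49 to 15.4, with 2 of 7 called. Natural killer and innate lymphoid markers summed to 17.7 to 27.7 and then 66.9 to 77.0, with 1 of 7 called, Id2. A sum follows its brightest probes, and Nkg7 made up most of this one on every array. Klrk1 and Ncr1 were detected nowhere, and Prf1 and Gata3 differed by -0.34 and -0.98 for CLP minus HSC. Hepatocyte markers summed to between 2.35 and 3.93 on all 6 arrays, but Trf made up most of that sum on each. It therefore says little of the others: Apob, Ttr and Fgb were detected nowhere, and Alb and Afp on 3 arrays each. The part of such cells in the Cxcr2, Cxcr4, Ccr2 and Ccr1 levels of CLP was not tested.

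**Figure D4:**
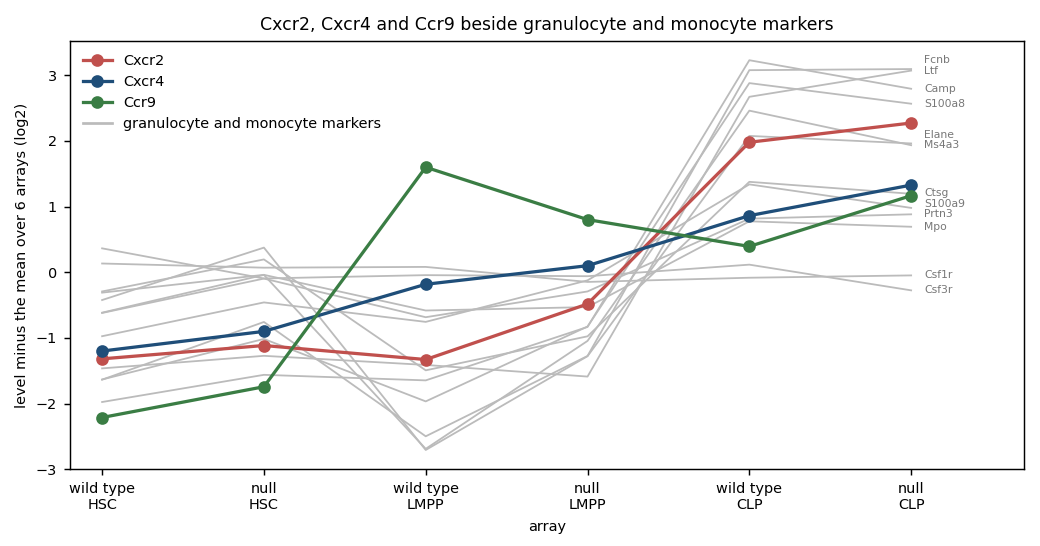
Level minus the probe's mean over the 6 arrays (log2) of Cxcr2 (red), Cxcr4 (blue) and Ccr9 (green) beside 12 granulocyte and monocyte markers (grey), by array. Cxcr2 and most grey lines are highest on the 2 CLP arrays, while Ccr9 is high from LMPP on.

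T cell markers are set beside Ccr9 because it guides T lineage progenitors. Their summed level was 3.42 to 7.48 over the 6 arrays, limma called 0 of 4 tested in any contrast (1 had an unadjusted p under 0.05 for genotype and 1 for LMPP minus HSC), and Cd3d, Cd3g and Cd8a were not well above background anywhere. Their median difference was 0.60 for LMPP minus HSC and -0.35 for CLP minus LMPP. Dendritic cell markers, some of which are also expressed by LMPP, summed to 17.1 to 18.6 on the HSC arrays. On the LMPP arrays they summed to 32.4 to 33.3, and on the CLP arrays to 26.7 to 27.5. The list includes Flt3, the gene by which HSC and LMPP were sorted apart. Flt3 read 1.18 and 1.35 in wild type and null HSC, 3.22 and 3.32 in LMPP and 0.85 and 1.78 in CLP. The sort therefore fixed part of the LMPP peak of this sum. Irf8, a transcription factor of dendritic and monocyte lineages, rose from HSC to CLP by 3.68 (SE 0.26, limma's adjusted p = 0.0344). It was the 1 called of the 6 dendritic markers tested, where 2.29% of all probes were called. The median of these markers for CLP minus HSC was 0.05, so the others did not rise as a set. The part of dendritic cells or Irf8 in the Ccr9 level was not tested. On the HSC arrays, on which Cxcr6 and Ccr2 were lower in the null, 3 of 4 compared T cell markers were past 2-fold lower in the null, where 10.7% of all probes were. Natural killer and innate lymphoid markers had 1 of 7 higher and 0 lower there, and B cell markers 4 of 7 higher and 1 lower. Erythroid markers had 3 of 7 higher and 0 lower, and macrophage markers 1 of 4 higher and 1 lower. Mast cell, basophil and eosinophil markers had 1 of 5 higher, megakaryocyte markers 1 of 6 and hepatocyte markers 1 of 5, with 0 lower. Endothelial and stromal markers had 0 of 6 higher and 2 lower. Of 12 granulocyte and monocyte and 6 dendritic cell markers 0 passed. Over all probes in HSC 18.6% passed 2-fold either way. The part of these cells in the Cxcr6 and Ccr2 differences was not tested. On the LMPP arrays, where Ccr2 was lower and Cxcr2 read 0.85 higher in the null, several marker lists had genes past 2-fold higher in the null and none lower, beside 12.4% of all probes either way. These were 4 of 12 granulocyte and monocyte, 3 of 6 macrophage, 4 of 4 mast cell, basophil and eosinophil, 5 of 7 megakaryocyte, 4 of 7 erythroid and 4 of 8 B cell markers. The same held for 2 of 7 natural killer and innate lymphoid, 1 of 5 T cell and 1 of 6 dendritic cell markers. Hepatocyte markers had 0 of 4 higher and 2 lower, and endothelial and stromal markers 0 of 6 higher and 1 lower. Over all probes in LMPP 5.27% were past 2-fold lower. The part of all these cells in the Ccr2 and Cxcr2 differences was not tested. B cell markers summed to 1.46 to 4.16 on the HSC and LMPP arrays and 8.57 to 11.9 on the CLP arrays.

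Each member well above background on all 6 arrays was also set against 11016 genes measured as well, by the root mean square difference of log2 levels over the 6 arrays after centring each gene on its own mean. Closest to Ccr9 was Ccl3 at 0.43, then Rbm47 at 0.50 and Ptger2 at 0.52. Closest to Cxcr4 were Lgmn and Cxcl16 at 0.16 and Kif4 at 0.19. Closest to Cxcr2 were Lilrb4a at 0.16, Adpgk at 0.18 and Acp5 at 0.19. Selplg, by probe 1, had the nearest neighbours of all, Ikzf1, Zfp706 and Rfc3 at 0.10 to 0.11. Cx3cr1 by probe 1 lay nearest to Ckb at 0.12, Cenpl at 0.23 and Bfsp2 at 0.25. Cxcr6 by probe 1 had Brwd1 at 0.28 and Mettl21c and Mybpc1 at 0.32. Only 6 points enter each value, and they share the arrays and their scaling.

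Of the other 15 chemokine receptors, 9 were well above background on at least 1 array. Of the 15, Ccr3, Ccr4, Cxcr1, Xcr1, Ackr3 and Ackr4 were well above background on no array, and only 3 were detected often enough for the fit, with 0 called by limma in any contrast and 1 with an unadjusted p under 0.05 for each of LMPP minus HSC and CLP minus HSC. Between 2 and 8 of the 15 were well above background per array, with the highest counts in CLP, 7 in wild type and 8 in the null. In CLP 4 of 9 compared were past 2-fold higher in the null and 1 lower, where 23.2% of all probes passed 2-fold either way. The largest was Cxcr5, the B cell follicle receptor, at least 3.04 higher, followed by Ccr10, at least 1.41 higher. In HSC Cxcr3, a receptor of activated lymphocytes, was 2.43 higher in the null, and in LMPP Ccrl2 was lower by at least 1.42.

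Of 18 genes for the members' ligands, 14 were tested. For CLP minus LMPP limma called 1 higher and 1 lower, where 2.94% of all probes were called either way. For CLP minus HSC it called 1 higher and 0 lower, where 2.29% were. From LMPP to CLP the neutrophil chemokine Cxcl2 rose by 2.25 (SE 0.31, limma's adjusted p = 0.0479) and Ccl4 fell by 2.45 (SE 0.32, adjusted p = 0.0448). From HSC to CLP Ccl3, a ligand of Ccr1, rose by 2.58 (SE 0.33, adjusted p = 0.0458). The list's medians were 0.39 and 0.96, beside -0.13 and -0.10 over all probes. Between genotypes 2 of 14 were past 2-fold higher and 4 lower in HSC, where 18.6% of all probes passed 2-fold either way. In CLP 2 of 13 compared were past 2-fold higher in the null and 2 lower, where 23.2% of all probes passed 2-fold either way. Ccl6 was higher there by at least 3.70, while Ccl5 and Cx3cl1 gave -2.36 and -1.51. Cxcl12, the ligand of Cxcr4, ran both ways, -2.40 in HSC and at least 3.24 higher in the null in CLP; it was singled out after its values were seen.

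Of 17 genes for selectins and the enzymes and carriers of their ligands, 16 were tested, and 1 was called in each CLP contrast. Over all probes 2.94% were called in CLP minus LMPP and 2.29% in CLP minus HSC. An unadjusted limma p under 0.05 was found for 9 of 16 in CLP minus LMPP and 11 of 16 in CLP minus HSC. Of the 73 genes tested over this list and the other receptor, ligand, signalling and homing lists, 30 and 38 had such a p. The share of all probes with such a p is not given here for these contrasts, so the counts do not set this list apart. The list's medians were 0.68 and 0.57, beside -0.13 and -0.10 over all probes. Cd24a, a membrane glycoprotein that can carry P-selectin ligands, rose from LMPP to CLP by 2.01 (SE 0.28, limma's adjusted p = 0.0483). C1galt1, which makes the core of the O-glycans that PSGL-1 carries, rose from HSC to CLP by 2.44 (SE 0.27, adjusted p = 0.0405). The fucosyltransferase gene Fut4 was 2.42 higher in null CLP than in wild type CLP, and the sialomucin gene Podxl at least 1.39 higher. They were the 2 of 16 past 2-fold, where 23.2% of all probes were either way.

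Of 26 genes of chemokine receptor signalling, all were tested and 2 called, both from LMPP to CLP, where 2.94% of all probes were. Rgs1, which shuts off G protein signals from these receptors, fell by 2.64 (SE 0.25, limma's adjusted p = 0.0347), and Tiam1, an activator of Rac, rose by 1.94 (SE 0.27, adjusted p = 0.0480). No gene of the list passed 2-fold between genotypes in LMPP. In HSC 1 of 26 did (Grk5, lower by at least 1.73), and in CLP 2 of 26, both higher (Pik3r5 by 1.57). Over all probes 12.4%, 18.6% and 23.2% passed it either way in LMPP, HSC and CLP.

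Of 18 other homing and egress receptors, 14 were tested. For CLP minus LMPP limma called 3 higher and 1 lower, where 2.94% of all probes were called either way. For CLP minus HSC it called 1 higher and 1 lower, where 2.29% were. From LMPP to CLP the integrin chain Itgb2 rose by 2.36 (SE 0.26, limma's adjusted p = 0.0390), the formyl peptide receptor Fpr2 by 3.94 (SE 0.50, adjusted p = 0.0436) and the complement receptor C3ar1 by 2.05 (SE 0.27, adjusted p = 0.0451). These are known from neutrophils and other myeloid cells. Robo4, a guidance receptor known to act in the homing of stem cells to bone marrow, fell by 3.51 (SE 0.46, adjusted p = 0.0451), and Itgb2 and Robo4 were called for CLP minus HSC too. Over these 5 lists limma called 0 of 73 tested genes for genotype, 3 having an unadjusted p under 0.05. For LMPP minus HSC it called 0, 13 having one. Over all probes 6.22% had one for genotype and 7.76% for LMPP minus HSC.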

How the data were processed

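The 6 scanner files and the authors' value table were used. Per the labels' protocols, Cy3-labelled cDNA was amplified from 6.1 ng RNA, and per the file headers spot intensity was read with Agilent Feature Extraction 10.10.1.1 (the submitters' processing notes name 10.10). The deposited intensity used is the scanner's processed signal on a linear scale. The authors' deposited value table is the same intensity times 1 constant per array, between 5.71 and 8.77, so it is linear, uncentred and without direction; its column medians were 121 to 200.1 and the basis of the constants stays unknown.

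Control spots (3671 per array) and spots with an outlier mark (154 to 181) were left out, of 59305 other spots. Log2 signals were centred on the array's 75th percentile, and spots of a probe averaged. Probes were named by accession through the GRCm38.p6 RefSeq table, whose coordinates were not used for probes, since the headers name another build. A difference from an array not well above background is a bound, taken against the probe's own signal or, if higher, the lowest such signal on the array, its floor, between -4.19 and -3.76. Such values were raised to that signal in the limma fit. Where a gene of a list had several probes, its brightest was used. The number of arrays limits the precision: the fit had 2 residual and 2.43 prior degrees of freedom. limma 3.58.1 in R 4.3.3 was tested on simulated data. The normexp alternative (offset 50) used median signals, since the scanner files hold no mean signal.

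Named genes are all members, the 3 most alike genes per member, and up to 4 genes per list, those past the test or else past 2-fold, largest first. Undetected genes were named after their values were seen, as were Csf3r, Csf1r, Nkg7, Prf1, Gata3, Trf, Alb and Afp. So were Ccl5 and Cx3cl1 among the ligands, Kit and Ly6a among the sort genes, and Flt3 among dendritic markers. The members and lists were chosen with earlier results of these data known.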

Additional observations from a re-analysis of the deposited data

Results flagged for a closer look

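For 5 members the genotype difference had opposite signs in different populations, which was not tested, since each group has 1 array. The share of all probes with opposite signs is not given here, so the count does not set these members apart. Values are Satb1-null minus wild type, in the order HSC, LMPP, CLP. Cxcr6 gave -2.44, 0.56 and -0.80 with probe 1 and -2.16, 0.80 and -0.68 with probe 2, each over 2 times its scanner error. Ccr9 gave 0.47, -0.80 and 0.77, also each over 2 times its scanner error. For the other members the odd sign was smaller than its scanner error: Ccr2 gave at least -1.35, then -1.31 and 0.018, Cx3cr1 probe 1 gave 0.69, 0.54 and -0.036, and Selplg probe 2 gave 0.71, -0.064 and 0.19.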

How the results depend on the processing

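Cxcr2 stayed called in both CLP contrasts under every alternative that kept all 6 arrays; leaving out any 1 array, which leaves 1 residual degree of freedom, gave 0 member probes and 0 probes in all for each limma contrast. For CLP minus LMPP the count of member probes was 1, and 3 with normexp and 2 without a filter on dim probes. For CLP minus HSC it was 2, and 1 with the percentile over probes detected on all arrays, with quantile normalization and with values left as measured, 4 for probes detected on all arrays, and 5 with median centring, normexp or no filter. Member probes past 2-fold between genotypes in HSC numbered 3, and 5 at 1.5-fold or with no filter and 2 at 3-fold, where Ccr2 is lost. In LMPP they numbered 1, and 0 with normexp or at 3-fold, 4 at 1.5-fold and 2 with no filter. In CLP they numbered 0, and 4 at 1.5-fold. The authors' table without further centring, an alternative chosen after seeing the data, left these genotype counts at 3, 1 and 0.

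Signs turned for Cxcr6 in CLP minus LMPP, to 0.0029 (probe 1) and 0.14 (probe 2) with median centring and 0.070 (probe 2) with quantile normalization, and for Selplg probe 1 in CLP minus HSC, to -0.15 with the detected percentile and -0.14 with quantile normalization. Leaving out 1 array gave ranges across 0. For genotype, Ccr9 ran from -0.16 to 0.62 and Cxcr6 probe 2 from -1.42 to 0.055. For LMPP minus HSC, Cxcr6 probe 1 ran from -1.38 to 0.94 and probe 2 from -1.51 to 0.71. For CLP minus LMPP, Ccr9 ran from -1.13 to 0.29, Cxcr6 probe 1 from -1.30 to 0.89, probe 2 from -1.18 to 1.04, and Selplg probe 2 from -0.50 to 0.017. For CLP minus HSC, Cxcr6 probe 1 ran from -1.59 to 0.73, probe 2 from -1.58 to 0.64, and Selplg probe 1 from -0.27 to 0.42. The cause of these changes was not tested, other than the fewer arrays.

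Over all probes, genotype calls were 4, and 0 with quantile normalization or the filter on all 6 arrays. CLP minus LMPP calls were 898 (447 to 2508) and CLP minus HSC calls 699 (291 to 2482). Probes past 2-fold numbered 6347 in HSC (1316 to 12879), 3942 in LMPP (647 to 8897) and 7548 in CLP (2355 to 13724). Scaling moved the median of all probes for CLP minus HSC from -0.32 to 0.29, and the share of genotype calls that were higher in HSC from 42.6% to between 32.3% and 57.6%, and in LMPP from 57.4% to 74.8% with normexp. Where an array is not well above background, as for Ccr7 and Ccr1 outside CLP and for Ccr2 in null HSC, a difference is a bound or could not be given. No paired analysis was possible because the labels carry no replicate numbers to pair arrays by; the fit itself takes each genotype difference within populations and each population difference within genotypes.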
